A study of Homo sapiens with 6 samples.

Results

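Bidirectional promoter regions were taken as the open regions that lie between the starts of neighbouring protein-coding genes read away from each other. In GRCh38, 1015 pairs of coding genes lay on opposite strands with diverging starts at most 1000 bp apart, and they held 2001 of the 19675 coding genes with a known strand (10.2%). Joining peaks that shared at least 1 bp, from any sample, gave 102784 merged regions, and the 934 regions that overlapped the span between the starts of a pair are the members. Of these, 917 had a peak in every sample, among 50150 such regions in all. The 16983 coding starts outside these pairs and outside pairs that overlap, called single starts, served for comparison, and those that lay under a peak gave 8094 regions. A pair is written with the gene on the minus strand first.

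The data are ATAC-seq peak lists of RKO, a mismatch repair deficient colon cancer cell line, grown at 5% O2. In 3 samples cells received 0.2 µM aphidicolin (APH) for 16 h, a low dose of an inhibitor of the replicative DNA polymerases, and 3 DMSO samples were the controls. The study calls them independent experiments of 1 line, and cells of both groups were treated with DNase, frozen and thawed before tagmentation. In ATAC-seq the Tn5 transposase cuts accessible DNA and tags it with adapters.

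Each list gives for every peak 1 value, the mean over the peak of the coverage in 32-nt bins, here called the peak value or signal. Values were not scaled to library size and the read depth of the samples is unknown, so a difference in depth enters every comparison of APH with DMSO, but not the comparison of pairs with single starts inside a sample. The lists held 64511 to 84510 peaks, and the lowest value of any peak was 15.1 to 15.5. Among colon and epithelial marker genes, KRT8, KRT18, EPCAM, CDX2 and LGR5 had a peak within 1 kb of their start in all 6 samples, KRT20 in 2 samples, and CDH1 and VIL1 in none.

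A bidirectional promoter is a short, usually CpG-rich stretch of DNA from which RNA polymerase II transcribes a gene on either side. Such pairs are common among housekeeping genes, and many join genes of DNA repair, of the mitochondrion or of chromatin, such as the histone genes. The shared stretch is largely free of nucleosomes and is bound by general activators. Among these are NF-Y, which binds the CCAAT box, the SP family, which binds GC boxes, and ETS factors.

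The DNA between the starts of named pairs is shown first, because it is what the open region of a pair encloses and because the value of pair regions differed most with the CCAAT box among the motifs searched. The sequences are those of RefSeq, build GRCh38.p14, read 5′ to 3′ on the plus strand, so that the first gene begins just left of the run and the second just right of it. Capitals mark the letters CCAAT of the NF-Y box, GGGCGG of the GC box or CGGAAGT of ETS factors, each on either strand. The first 3 spans, chosen from pairs of the classic list and of highest value, hold several CCAAT boxes.
SARS2/MRPS12, chr19:38930764-38930943: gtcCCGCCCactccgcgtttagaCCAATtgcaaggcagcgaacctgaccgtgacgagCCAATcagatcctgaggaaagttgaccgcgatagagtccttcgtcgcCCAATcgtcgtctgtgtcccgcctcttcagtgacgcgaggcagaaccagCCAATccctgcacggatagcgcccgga
GART/SON, chr21:33542894-33543037: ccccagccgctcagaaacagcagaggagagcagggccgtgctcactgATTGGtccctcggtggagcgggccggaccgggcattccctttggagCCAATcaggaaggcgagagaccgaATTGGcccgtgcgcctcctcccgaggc
LRCH4/FBXO24, chr7:100586130-100586327: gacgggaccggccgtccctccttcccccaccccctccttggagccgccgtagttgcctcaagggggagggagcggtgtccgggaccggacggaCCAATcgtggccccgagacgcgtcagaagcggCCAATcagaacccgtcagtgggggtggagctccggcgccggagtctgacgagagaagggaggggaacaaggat
The next spans hold other matches or none. HSPD1/HSPE1 is a strongly open pair of the classic list, SIRT3/PSMD13 has its starts only 45 bp apart, ILDR2/MAEL had the lowest mean value among pair regions with a peak in all samples, and RHBDD3/EWSR1 and TMEM203/NDOR1 had the smallest unadjusted p for lower values after APH.
HSPD1/HSPE1, chr2:197500275-197500378: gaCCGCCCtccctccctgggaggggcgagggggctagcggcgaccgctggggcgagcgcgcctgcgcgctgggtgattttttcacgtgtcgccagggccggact
SIRT3/PSMD13, chr11:236932-236975: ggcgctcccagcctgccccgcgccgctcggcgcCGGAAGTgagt
ILDR2/MAEL, chr1:166975541-166975581: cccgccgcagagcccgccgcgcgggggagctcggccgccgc
RHBDD3/EWSR1, chr22:29268164-29268267: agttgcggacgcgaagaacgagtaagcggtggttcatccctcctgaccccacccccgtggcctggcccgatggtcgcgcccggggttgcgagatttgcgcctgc
TMEM203/NDOR1, chr9:137205649-137205699: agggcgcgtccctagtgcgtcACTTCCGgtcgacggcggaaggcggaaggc
The span of the collagen IV genes COL4A1/COL4A2 holds a CCAAT and a GC box and had no peak in any sample.
COL4A1/COL4A2, chr13:110307158-110307283: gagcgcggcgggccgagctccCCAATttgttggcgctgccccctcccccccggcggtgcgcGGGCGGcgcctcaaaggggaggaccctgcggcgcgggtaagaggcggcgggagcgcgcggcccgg

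The first comparison asks how often and how strongly the span between diverging genes was open. Of the 1015 pairs, 914 (90%) lay under a peak in all 6 samples, 70 (6.9%) in none, and 31 in 1 to 5 samples. Of the single starts, 41.6% lay under a peak in all samples and 51.8% in none. By sample, 92.4%, 91.3% and 92.4% of the pairs were open in DMSO and 90.6%, 90.7% and 92.4% in APH, against 43.9% to 46.4% of the single starts. The difference was 46.6 ± 0.483 percentage points (SD, n = 6), 46.0 at the lowest, and had the same sign in 6 of 6 samples (exact two-sided sign-flip permutation test over samples, p = 0.0312, the smallest that 6 samples allow, and 0.0335 adjusted over the 15 such tests made). A span offers more bases to overlap than a single start does. The difference was 44.5 points when the 300 bp upstream of each single start stood for the start, and 38.3 when the region had to hold both starts of the pair.

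Open pair regions carried more signal than open single starts. The median value of pair regions was 186, 204 and 202 in the DMSO samples and 152, 161 and 161 in the APH samples. For single starts it was 147, 154 and 161 in DMSO and 121, 127 and 135 in APH. Pairs stood above single starts in every sample, by 1.26-fold on average (log2 difference 0.33 ± 0.046, SD, n = 6, range 0.26 to 0.40; the same exact test, p = 0.0312, adjusted p = 0.0335). All shared regions had a median of 61.5 to 77.4. The pairs' advantage held at both ends of the distribution: the 10th percentile was 76.5 to 108 for pairs and 57.6 to 77.6 for single starts, and the 90th was 273 to 412 against 247 to 342. Ranked by mean value over all shared regions, 42.6% of the pair regions lay in the top 10% and 29% of the single-start regions did.

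Pair regions were also wider. The covered width, the summed length of a sample's peaks in a region, had a median of 916, 834 and 907 bp in DMSO and 830, 818 and 898 bp in APH. For single starts the medians were 835, 747 and 824 bp in DMSO and 755, 731 and 819 bp in APH. The pairs were 1.1-fold wider, with a log2 difference of 0.14 ± 0.013 (SD, n = 6) that was positive in 6 of 6 samples (exact test as above, p = 0.0312, adjusted p = 0.0335). Over the 859 pairs with a region of their own in all samples, the peaks reached a median of 250 to 298 bp past a start into the gene, and 92.4% to 95.3% of the pairs had both starts covered. At 7504 single starts the peaks reached 275 to 389 bp into the gene and 356 to 374 bp upstream.

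The size of these differences varied with the kind of start on the other strand. A coding start with a diverging noncoding gene within 1 kb (1465 starts) was open in 71.1% to 75.6% of cases, with a median value of 131 to 177 and a width of 780 to 880 bp. A coding start with no other start within 1 kb (14440 starts) was open in 40.2% to 42.4%, with a value of 119 to 158 and a width of 715 to 819 bp. Coding pairs stood above the first class by 18.4 points in the share open, by 0.20 in log2 value and by 0.06 in log2 width, and above the second by 50.5 points, 0.36 and 0.18. Each of these 6 differences had 1 sign in 6 of 6 samples (exact test as above, each p = 0.0312, adjusted p = 0.0335). The remaining 1078 single starts, which have another start near by in another arrangement, were open in 57.0% to 60.1%. They lay below pairs by 0.28 in log2 value but did not differ in width beyond the spread (log2 difference -0.02, range -0.06 to 0.01, exact p = 0.156). Another 350 pairs of coding genes, left out by the rule, overlap at their starts. Their regions had a median value of 128 to 173, below the members by 0.25 in log2 in 6 of 6 samples (exact p = 0.0312, adjusted p = 0.0335).

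**Figure D1:**
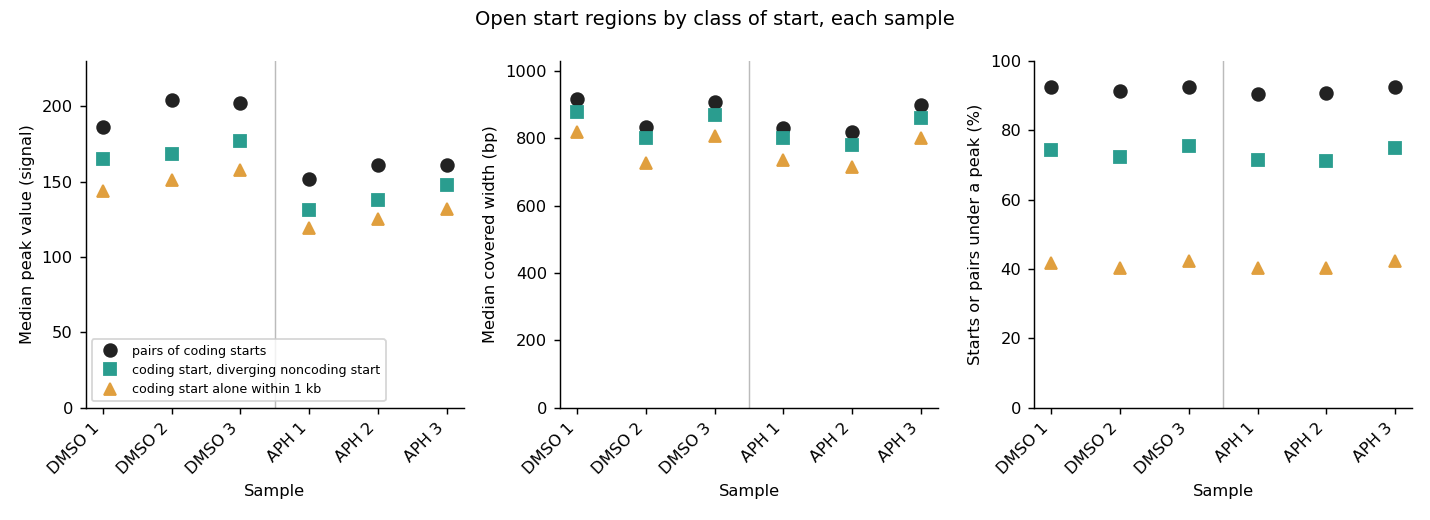
Median peak value (signal), median covered width (bp) and share of starts or pairs under a peak (%) in each of the 6 samples, for pairs of coding starts, coding starts with a diverging noncoding start, and coding starts alone within 1 kb. Points are single samples. Pairs lie highest in every panel and sample, and all 3 classes have lower values in the APH samples (pairs 152 to 161) than in DMSO (pairs 186 to 204).

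Among the pairs, the value depended on how far apart the starts were. The distances ran from 1 to 995 bp with a median of 175 bp. Regions of pairs 51 to 100 bp apart had a median value of 124 to 164 over the samples, those of pairs 201 to 300 bp apart had 189 to 253, and those 501 to 1000 bp apart had 146 to 201. Pairs 151 to 300 bp apart (299 regions) exceeded pairs up to 150 bp apart (379 regions) by 0.45 ± 0.019 (log2, SD, n = 6; range 0.43 to 0.48), with medians of 180 to 248 and 134 to 178. The sign was the same in 6 of 6 samples (exact test as above, p = 0.0312, adjusted p = 0.0335), but these bounds were chosen after the values had been seen. The width did not follow the value, since its mean over samples was lowest, 784 bp, for pairs 151 to 200 bp apart and 927 bp for those 1 to 50 bp apart. The share open in all samples was 82.6% for the closest pairs and 94.1% for those 501 to 1000 bp apart.

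**Figure D2:**
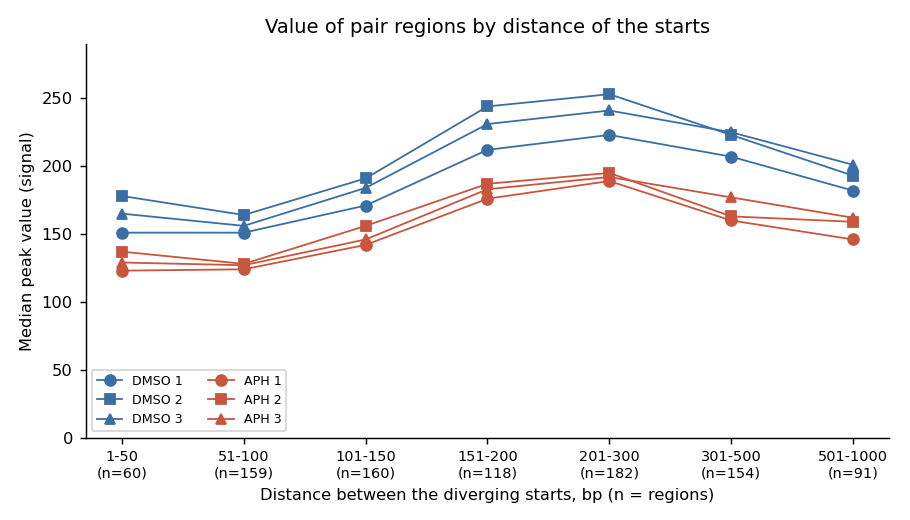
Median peak value of pair regions (signal) against the distance between the diverging starts (bp, in 7 classes, with the number of regions), 1 line per sample. All 6 lines peak at 201 to 300 bp, at 189 to 253, and are lower for closer and for more distant pairs.

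The pairs nearest the limit of 1 kb were these. Just inside it, APBA3/MRPL54 (990 bp) had a mean value of 217, CASKIN2/TSEN54 (991 bp) 111 and SMIM7/TMEM38A (995 bp) 230. Just outside it, USH1G/OTOP2 (1018 bp) had a peak in 4 samples with a mean of 31.7, PRADC1/CCT7 (1024 bp) had 335 and TSR1/SGSM2 (1044 bp) had 155.

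The CCAAT box went with higher values. Promoter windows from 250 bases before to 50 after the start were found in RefSeq for both genes of 680 of the 1015 pairs, and 632 of these had a region in all samples. The pairs with and without both windows had medians that differed by 0.003 in log2 value (range -0.039 to 0.039). Regions with a CCAAT in either window (311) had median values of 219, 249 and 232 in DMSO and 179, 192 and 185 in APH. Those without (302) had 159, 177 and 177 in DMSO and 134, 137 and 141 in APH, so that no median without a CCAAT reached one with it, in either condition. The log2 difference was 0.44 ± 0.043 (SD, n = 6), with the same sign in 6 of 6 samples (exact two-sided sign-flip test, p = 0.0312; 0.0547 adjusted over the 7 motifs searched, which does not pass). With 3 or more boxes (79 regions) the median was 216 to 339, with 2 (69 regions) 161 to 219, and with 1 (163 regions) 167 to 221.

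The difference with CCAAT was present in each class of distance. It was 0.29 (log2, range 0.18 to 0.37) for pairs up to 150 bp apart, 0.48 (0.42 to 0.57) for 151 to 300 bp and 0.32 (0.26 to 0.42) for 301 to 1000 bp, each with 1 sign in 6 of 6 samples (exact p = 0.0312, 0.0375 adjusted over 6 such tests). These tests hold no other motif and use parts of the same regions, and CCAAT had the largest difference of the 7 motifs. They therefore add no support to its adjusted p of 0.0547 by the exact test, which did not pass. The difference with CCAAT was not particular to pairs. At single starts with a CCAAT (2262 regions) the median value exceeded that of single starts without (3577) by 0.44 (range 0.38 to 0.53). Single pairs varied widely. The spans shown above are only part of the windows searched, so a pair without a box in its span may hold one further out. Of the spans shown above with CCAAT boxes, SARS2/MRPS12 had a mean value of 230, GART/SON 261 and LRCH4/FBXO24 827, and COL4A1/COL4A2 had no peak in any sample. Of those shown without one, HSPD1/HSPE1 had 291, TMEM203/NDOR1 209, RHBDD3/EWSR1 135, SIRT3/PSMD13 129 and ILDR2/MAEL 36.2.

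**Figure D3:**
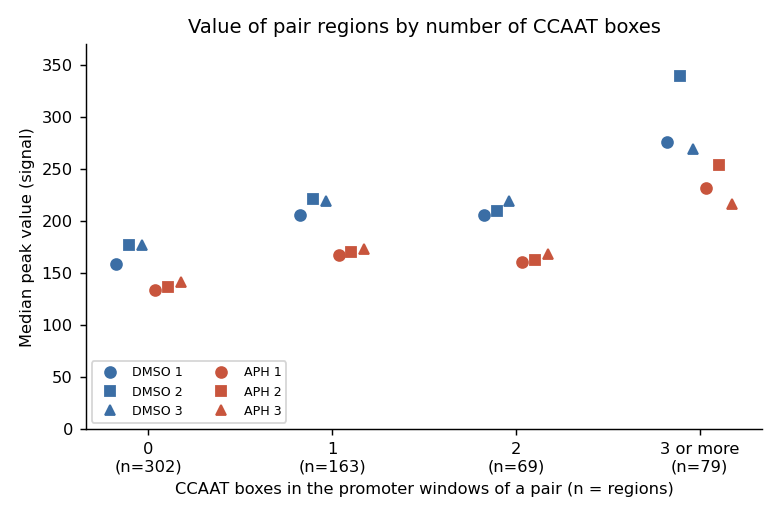
Median peak value of pair regions (signal) in each sample by the number of different CCAAT positions in the promoter windows of the pair, with the number of regions. Regions with 3 or more boxes lie at 216 to 339 and those with none at 134 to 177, and in every class the APH samples lie below the DMSO samples.

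The other motifs went with smaller differences. Pairs with GGGCGG (499 of the regions) exceeded those without by 0.06 in log2 value, those with CGGAAGT (180) by 0.05, and those with TATAAA (31) by 0.20, each with the same sign in 6 of 6 samples and an adjusted p of 0.0547 by the exact test. The letters GCATGCG for NRF1, AAGATGG for YY1 and TGACGT for CRE gave differences of -0.07, 0.07 and -0.02, none with a p under 0.05 by the exact test. On either strand, CCAAT was found in 37.1% of all 13820 coding promoter windows, GGGCGG in 58.5%, CGGAAGT in 10.3%, TATAAA in 10%, GCATGCG in 5.33%, AAGATGG in 6.69% and TGACGT in 9.94%. In the 1563 windows of pair genes the shares were 42.7%, 72.4%, 24.4%, 4.09%, 9.53%, 10.5% and 14.7%, in the same order. Most single starts were closed, so open starts are given too. For genes of pairs open in all samples the shares were 44.1%, 73.9%, 25.8%, 3.99%, 10%, 11.3% and 15.6%. For single starts open in all samples they were 40%, 74%, 15.2%, 5.2%, 7.41%, 8.07% and 13.5%. These shares were not tested, because windows were found for 78.1% of the genes in pairs and 69.5% of the single starts, under the 80% that a comparison of sets needs. A match is a run of letters and not a bound site.

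Among named pairs, the classic examples of divergent genes were nearly all open. The list held 13 pairs under the rule, of which 11 had a region in all samples with mean values of 129 to 342. NPAT/ATM joins a coactivator of histone transcription to the kinase that signals double-strand breaks. Its region, chr11:108222307-108223473, had values of 336, 430 and 401 in DMSO and 279, 309 and 297 in APH. HSPD1/HSPE1 encodes both parts of the mitochondrial chaperonin, and its region had 303, 350 and 330 in DMSO and 254, 252 and 259 in APH. In both pairs every APH sample lay below every DMSO sample, as was the case in 57.6% of all members and in a background of 14.4% of all shared regions.

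PRKDC/MCM4 joins the catalytic subunit of the DNA-dependent protein kinase, which acts in end joining, to a subunit of the replicative helicase. The stronger of its 2 regions had 279, 283 and 297 in DMSO and 189, 195 and 212 in APH. OSGEP/APEX1, with the main endonuclease for abasic sites, had 217, 259 and 221 in DMSO and 170, 168 and 173 in APH. TK1/AFMID, with thymidine kinase, had 266, 288 and 317 in DMSO and 232, 250 and 265 in APH. The groups did not overlap in these 3 pairs either, which is the more common state among the members (57.6%). SIRT3/PSMD13 was the weakest of the 11 with a mean of 129, and TAP1/PSMB9, which serves antigen processing, had 145.

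SURF1/SURF2 and ZBTB4/POLR2A stood apart in that list. At SURF1/SURF2 a peak was listed in 3 samples only, at 174 and 181 in DMSO 1 and DMSO 3 and 172 in APH 3. ZBTB4/POLR2A, with the largest subunit of RNA polymerase II, had a region in all samples (142 to 197), but its peaks reached the span in 4 of them.

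**Figure D4:**
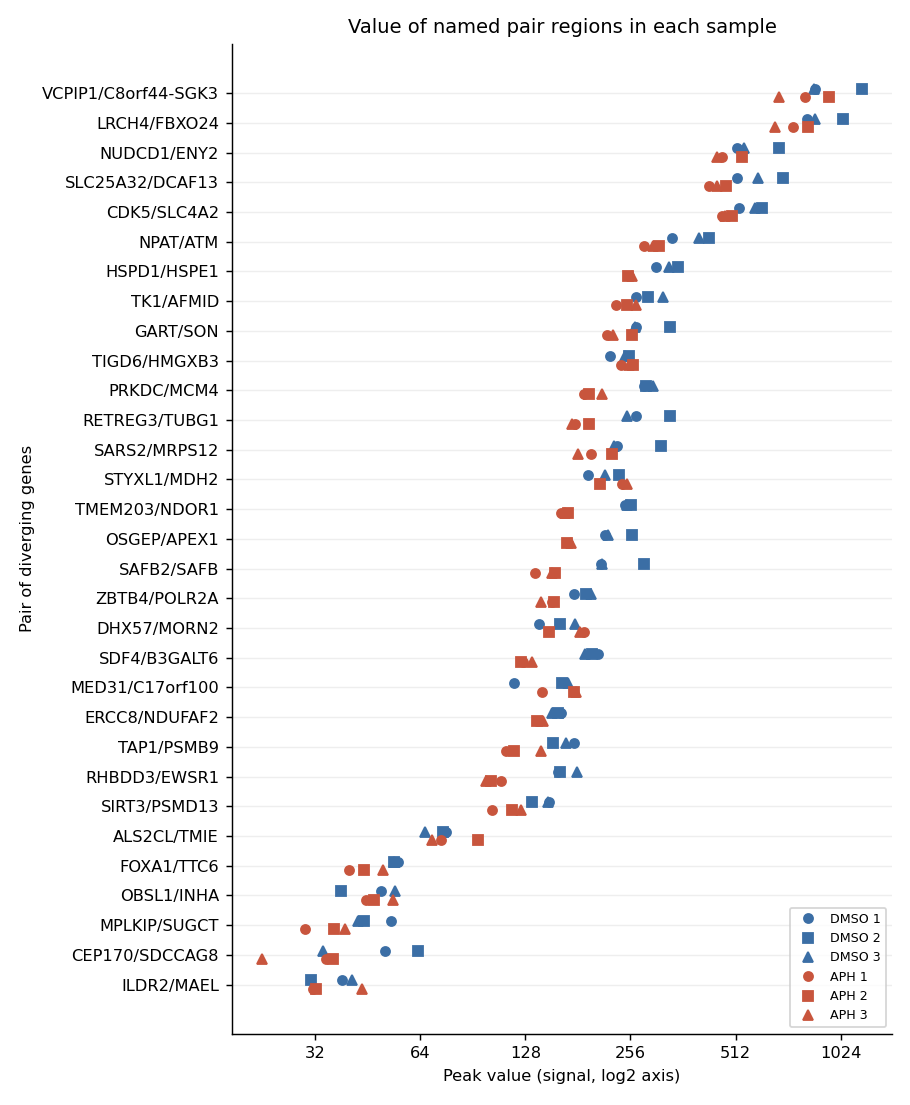
Peak value (signal, log2 axis) of named pair regions (classic list, the 5 highest and 5 lowest, and the 5 of smallest p in each direction) in each of the 6 samples, DMSO in blue and APH in red, ordered by mean value. Values run from about 890 on average for VCPIP1/C8orf44-SGK3 to 36.2 for ILDR2/MAEL, and the groups overlap in VCPIP1/C8orf44-SGK3, LRCH4/FBXO24, NUDCD1/ENY2, CEP170/SDCCAG8, OBSL1/INHA, ILDR2/MAEL and the 5 pairs of smallest p for higher values. In the others all APH samples lie below all DMSO samples, as in 57.6% of all members and 14.4% of all shared regions.

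Genes of DNA replication and repair were often paired. Of 198 genes on the list, 60 (30.3%) were in a pair, against 10.2% of all coding genes, and 56 of their 60 pairs were open in all samples. The strongest was XRCC3/ZFYVE21, with a factor of homologous recombination, at 452, 614 and 502 in DMSO and 422, 504 and 342 in APH, where the groups overlapped. PCNA/CDS2, with the sliding clamp of replication, had 344, 474 and 452 in DMSO and 330, 365 and 375 in APH, also with overlap. MBD4/IFT122, with a thymine glycosylase, had 398, 475 and 398 against 344, 353 and 298, without overlap.

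Further down the list SLC25A40/DBF4, with the activator of the CDC7 kinase that fires origins, had a mean value of 329, and RARS2/ORC3, with a subunit of the origin recognition complex, had 296. TMEM167A/XRCC4, with a factor of end joining, had 293, CEP89/FAAP24, with a Fanconi anemia factor, had 364, and ZRANB3/R3HDM1, with an annealing helicase of stalled forks, had 315. PMS2/AIMP2, with a mismatch repair protein, had 347, 373 and 315 in DMSO and 274, 266 and 215 in APH, without overlap. No peak was listed over the span of MRE11/C11orf97 or BOLA2B/SLX1A. The last of these lies in a segmental duplication with near-identical copies, so its value is uncertain with uniquely mapped reads.

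All 62 pairs with a mitochondrial gene were open in all samples, with mean values of 51.1 to 525, and 67 of the 237 mitochondrial genes (28.3%) were in a pair. Of 74 histone genes, 27 (36.5%) were in 14 pairs, of which 13 were open in all samples with a median value of 262. The one closed histone pair was H2AC1/H2BC1. By contrast all 3 collagen IV pairs, COL4A1/COL4A2, COL4A4/COL4A3 and COL4A6/COL4A5, which encode the network collagen of basement membranes, had no peak over the span in any sample. The 70 closed pairs also included genes known for germ cells (SYCP2, SMC1B and MAGEA2), olfactory receptors (OR11A1/OR2H1) and an epithelial NADPH oxidase (DUOX2/DUOXA2), picked here as examples after the list had been seen.

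Over the members with a region in all samples, the mean value ran from 36.2 to 890 with a median of 178. The highest was VCPIP1/C8orf44-SGK3, with a deubiquitinase of Golgi assembly, at 865, 1182 and 857 in DMSO and 807, 946 and 682 in APH. LRCH4/FBXO24 followed at 822, 1037 and 862 in DMSO and 748, 827 and 663 in APH. NUDCD1/ENY2, SLC25A32/DCAF13 and CDK5/SLC4A2 came next with means of 533, 529 and 527. The covered width of these 5 was 709 to 1321 bp on average. VCPIP1/C8orf44-SGK3, NUDCD1/ENY2 and SLC25A32/DCAF13 lie on chromosome 8. Pair regions of that chromosome beyond its widest stretch without peaks lay above those of other chromosomes, by 0.29 to 0.54 in log2 over the samples.

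The weakest were ILDR2/MAEL with 36.2, CEP170/SDCCAG8 with 40, MPLKIP/SUGCT with 40.7, OBSL1/INHA with 47.8 and FOXA1/TTC6, with a pioneer factor of endodermal tissues, at 49.5. The broadest regions were those of ELF1/WBP4, which covered 2083 bp on average, ZNF425/ZNF398 with 2055 bp and RPL7/RDH10 with 1946 bp. CRAT/PTPA covered 1877 bp and HCFC1/TMEM187 1775 bp. None of the 5 broadest was among the 5 of highest value, and their mean values were 148, 128, 247, 261 and 154.

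The second comparison asks whether APH altered the pair regions. The median value was lower in APH, 158 ± 5.36 against 197 ± 9.76 (SD, n = 3 each), a log2 difference of -0.32, and no APH sample reached a DMSO sample. The exact two-sided permutation test gave p = 0.1, the smallest that 3 against 3 allows. Single starts differed likewise, by -0.27 in log2 (exact p = 0.1). The gap between pairs and single starts was 0.36 ± 0.041 in DMSO and 0.31 ± 0.042 in APH (log2, SD, n = 3), a difference of -0.05 that did not pass the test (exact p = 0.2). It was -0.026 without APH 3, -0.027 without DMSO 2, and -0.058 to -0.065 without any other single sample. The APH lists held 70121 to 84510 peaks and the DMSO lists 64511 to 77194. With the same number of strongest peaks in each sample the difference was again -0.32. The part of depth in the lower values was not tested. In bulk samples, fewer cells with an open promoter and less signal per cell cannot be told apart.

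Region by region, limma on log2(value + 1) called none of the 917 members in either direction at an adjusted p under 0.05, and none of the 50150 shared regions (background 0% in each direction). The lowest adjusted p was 0.29. To test the fit, 50 of 50150 regions were given a known log2 change. It recovered 0% of them at a change of 0.5, 28% at 1 and at -1, and 90% at 2, with 2 false calls each. Recovery of a change as small as the members' median of -0.31 was not tested. At an unadjusted p under 0.05, 462 members (50.4%) were lower in APH and 0 were higher. The background over all shared regions was 10.1% lower and 2.46% higher, and among single starts 33.9% were lower and 0.303% higher. With the titles' replicate number as a block in limma, 504 members (55%) were called lower at an adjusted p under 0.05 and 0 higher, against a background of 11.1% and 2.04% and against 37.8% and 0.237% of the single-start regions, but the numbers are not known to pair the samples. Without the block and without APH 1 the unadjusted count of lower members was 206, with a background of 4.12% lower, and without DMSO 3 it was 270, with 6.48%. Every APH sample lay below every DMSO sample in 528 members (57.6%), against a background of 14.4%, and above in 0, against 4.21%. The share was 41.2% at single starts. The fitted log2 change was negative in 901 members (98.3%), in 93.5% of the single-start regions and in 59.3% of all shared regions, and its median was -0.31, -0.27 and -0.06 in these sets. The median of all shared regions turned to 0.04 without DMSO 2 and to 0.01 without APH 3 and was -0.12 without APH 2, while that of the members stayed between -0.36 and -0.28. The middle 80% of the members lay between -0.46 and -0.14.

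The change was also read within 10 classes of strength, by mean value. Over all shared regions the stronger classes had more negative changes, and 42.6% of the pair regions lay in the strongest class. The pair regions themselves showed no such slope, with medians between -0.30 and -0.33 in classes 6 to 10. The part of strength in the change was not tested. In the top 10% by mean value the median change was -0.30 for pairs, -0.28 for single starts and -0.24 for all shared regions. In the sixth of the 10 strength classes it was -0.33 for 45 pair regions, -0.25 for single starts and -0.06 for all. Within the 5 classes that held at least 20 pair regions, the change of pairs minus that of single starts was negative in all 5, from -0.01 to -0.10 (log2). The exact p lay between 0.1 and 0.6 and was 0.1, the smallest that 3 against 3 allows, in 3 of them, so that this design cannot pass the threshold either way. Scaling also moved the size: after quantile normalization of the samples, the median change of the members was -0.13, and 112 were lower and 9 higher at an unadjusted p under 0.05, against a background of 4.6% lower and 5.91% higher in that fit.

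**Figure D5:**
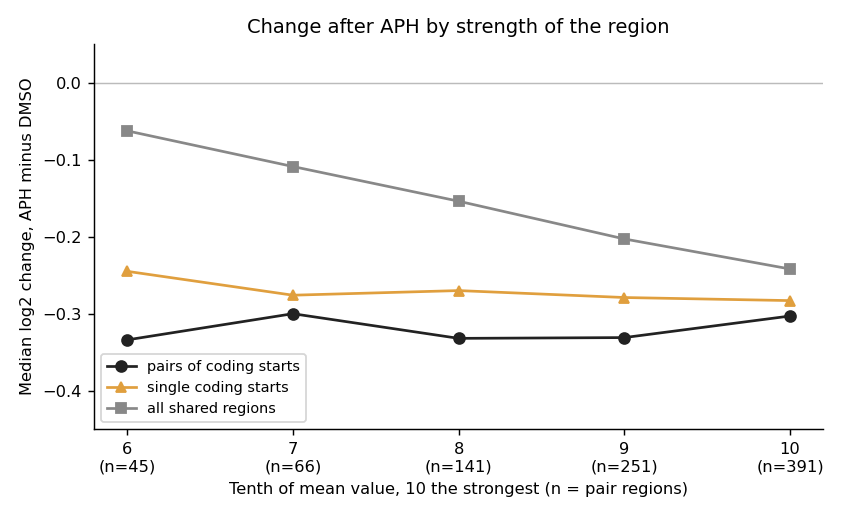
Median log2 change, APH minus DMSO, of pair regions, single-start regions and all shared regions within classes of mean value, from class 6 to class 10 (the strongest 10%), with the number of pair regions in each. The pair regions stay between -0.30 and -0.33, close to the single starts, and all shared regions run from -0.06 to -0.24.

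No pair region passed the adjusted test, so those of smallest unadjusted p are given as values only. For lower values these were RHBDD3/EWSR1, TMEM203/NDOR1, SDF4/B3GALT6, RETREG3/TUBG1 and SAFB2/SAFB. RHBDD3/EWSR1, with an RNA-binding protein of the FET family, had 159, 161 and 180 in DMSO and 109, 102 and 98.4 in APH, a log2 change of -0.69 ± 0.14 (SE; limma, adjusted p = 0.29). TMEM203/NDOR1 had 247, 257 and 250 in DMSO and 162, 170 and 166 in APH, and SDF4/B3GALT6 had 206, 198 and 190 against 126, 124 and 134. RETREG3/TUBG1, with gamma-tubulin, and SAFB2/SAFB, a pair of paralogs that bind matrix attachment DNA, changed by -0.62 and -0.64. In all 5 pairs the groups did not overlap, which the choice by smallest p favours. The share was 57.6% among all members and 14.4% among all shared regions.

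For higher values the members of smallest p were MED31/C17orf100, STYXL1/MDH2, DHX57/MORN2, ALS2CL/TMIE and TIGD6/HMGXB3, with log2 changes of 0.06 to 0.16 and unadjusted p of 0.346 to 0.634. STYXL1/MDH2, with mitochondrial malate dehydrogenase, had 193, 238 and 216 in DMSO and 242, 209 and 251 in APH. TIGD6/HMGXB3 had 224, 253 and 247 in DMSO and 241, 260 and 254 in APH. The groups overlapped in all 5.

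The regions of the named lists had mostly negative changes. Of the 57 regions of the replication and repair list with a peak in all samples, 56 had a negative change, 33 had an unadjusted p under 0.05 for lower values, 37 did not overlap between groups, and the median change was -0.32. For mitochondrial genes these numbers were 62 of 62, 36, 42 and -0.34, and for histone genes 13 of 13, 11, 11 and -0.36. The medians stand beside -0.31 for all 917 members. The counts, in the order given, stand beside 98.3%, 50.4% and 57.6% of the members. The background was 59.3%, 10.1% and 14.4% of all shared regions. Differences between a list and the other members were not tested. The 25 pair regions of chromosome 8 beyond its widest stretch without peaks had a median change of -0.33, against -0.31 for the 885 on other chromosomes. Their values lay above those of other chromosomes by 0.39 ± 0.092 in DMSO and 0.39 ± 0.13 in APH (log2, SD, n = 3). The exact test of APH against DMSO in this excess gave p = 0.9. Whether the excess itself differs from 0 was not tested.

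Width and openness differed little between conditions. The median width was 886 ± 45 bp in DMSO and 849 ± 43.1 bp in APH (SD, n = 3; exact p = 0.2), a log2 difference of -0.06 that ran from -0.10 without DMSO 2 or APH 3 to -0.04 without APH 2, DMSO 1 or DMSO 3. The difference of pairs from single starts in log2 width was the same in both conditions to the third decimal (APH minus DMSO 0.000249, exact p = 1). A peak covered the span in all DMSO samples for 925 pairs and in all APH samples for 916. In 6 pairs a peak was listed in DMSO samples only and in 3 in APH samples only, and in these groups too a missing peak says that none was called, not that there was no signal.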

How the data were processed

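The files are ATAC-seq peak lists of 6 RKO samples, 3 with 0.2 µM APH for 16 h and 3 with DMSO. The submitters' processing notes name BWA 0.7.12, MACS2 2.1.0 and hg38. The authors removed duplicates, kept uniquely mapped pairs, extended alignments to 200 bp, counted them in 32-nt bins, called peaks per sample and removed blacklisted peaks. The deposited value of a peak is its mean signal, not scaled to library size: value times bins came out whole, to the precision of the 6 deposited digits and allowing 1 bin, for 99.987% to 99.996% of the peaks tested. No read shift to the Tn5 cut is named. Depth is unknown, so no counting interval is given.

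Gene starts came from RefSeq (GRCh38.p14), 1 per gene, the outermost. Strand came from the RefSeq promoter table (15843 coding genes) or GENCODE (3832), and 362 coding genes without one were left out. No genome of this build was used. A region's value is the length-weighted mean of its peaks. Samples were compared with exact permutation tests, and regions with a peak in all 6 samples with limma (intensity trend, pseudocount 1, Benjamini-Hochberg at 0.05). Members, lists, motif letters and bounds were chosen with earlier results of these data known. Pairs were named from the lists (up to 12 of highest value each), as the 5 highest, lowest, broadest and of smallest p in each direction, and as 3 on either side of 1 kb. Of the pairs so named, 1 is not reported here. Alternatives covered merging, peak threshold and number, distance, overlap, start definition, chromosome 8, filter, pseudocount, scaling, replicate block and each sample left out. The fit was also tested on simulated data, with the recovery given beside its calls. Python 3.11.15, numpy 2.4.6, pandas 2.3.3, scipy 1.17.1, matplotlib 3.10.9, R 4.3.3 and limma 3.58.1 were used.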

Additional observations from a re-analysis of the deposited data

How the results depend on the processing

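Over the alternatives other than leaving out a sample, the value difference of pairs from single starts ran from 0.26 to 0.36 (log2), the width difference from 0.12 to 0.18 (log2) and the open share difference from 38.3 to 50.5 points, all with p = 0.0312 by the exact test. Leaving out 1 sample gave 0.32 to 0.35, 0.14 to 0.15 and 46.5 to 46.7 points, in designs of 5 samples whose exact test cannot pass 0.05. The APH minus DMSO value of pair regions ran from -0.33 to -0.13 (log2), with the smallest size under quantile normalization, and from -0.37 to -0.30 without 1 sample. The change in the pair minus single width difference, 0.000249 in log2, changed sign with the setting and held no direction: it was -0.00322 with peaks within 100 bp merged, -0.000577 with equal peak numbers, -0.002 where the region held both starts, -0.000306 with overlapping pairs, and -0.00891 to 0.00789 without 1 sample. No member was called at an adjusted p in any limma fit other than the replicate block.

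With the replicate number as a block, limma called 504 members lower (55%, background 11.1%) and 0 higher (background 2.04%). The titles' numbers are not stated to pair the samples. Deviations from the group means correlated at -0.00665, 0.477 and 0.515 for numbers 1, 2 and 3, DMSO 1 correlated best with APH 3 (0.126) and APH 1 with DMSO 2 (0.258), so the pairing was not taken up. By the exact sign-flip test within numbers, the change in value, -0.32 in log2, had p = 0.25, the smallest that 3 pairs allow. The block changed no other call among the results on pair regions, and among single-start regions it gave 2865 lower (37.8%) and 18 higher.

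Unknown depth limits every comparison of APH with DMSO. The 2 added alternatives (every RefSeq start, and overlapping pairs), the distance bounds, the strength and start classes and the motifs were chosen after seeing the data. A region that holds several pairs was counted once.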
